A study of Rattus norvegicus with 18 samples.

Results

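The genes described here are those of red blood cells and their precursors: the anion exchanger gene Slc4a1 (band 3), its membrane partner Epb42 (protein 4.2), the globin genes Hba-a1, Hba-a2, Hbb and Hbb-bs, the globin chaperone gene Ahsp, and Alas2, the erythroid form of the first enzyme of haem synthesis. They were picked by gene symbol, and the set of 8 symbols was chosen by measured values, since Slc4a1 and Epb42 moved in opposite directions both from WKY to ZSF1 lean and from ZSF1 lean to ZSF1 obese hearts. Of the 8 symbols, 6 stood in at least 1 of the authors' 3 tables of changed genes, which together held 6588 gene identifiers. Hba-a1 and Hbb stood in none.

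The tissue was the left ventricle of 18 male rats, 6 in each of 3 groups. WKY (Wistar Kyoto) rats were the control strain, ZSF1 lean rats the hypertensive group, and ZSF1 obese rats the group with hypertension and metabolic syndrome, in which the study models heart failure with a preserved ejection fraction. ZSF1 rats are hybrids of Zucker diabetic fatty and spontaneously hypertensive heart failure rats, and the obese animals lack a working leptin receptor. Strain and disease thus differ together in any comparison with WKY. No treatment is named for any group, and age is not given in the sources used here. Polyadenylated RNA was sequenced, and the values used are the authors' fold changes, each dividing the level in the group named first by that in the group it is set against, with adjusted p-values. Values per rat were not used here, so each gene has 1 fold and 1 adjusted p per comparison. Neither of these gives the spread of a gene between rats, which is therefore unknown here. The 3 comparisons share groups, and their values are set side by side rather than counted as separate support.

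A table lists a gene only when its fold was at least 2 or at most 0.5. The adjusted p reached 0.0498 in obese against lean and 0.0499 in obese against WKY, but no further than 0.000347 in lean against WKY. Absence from the lean table therefore covers genes that would have been listed in the other tables, and an unlisted gene cannot be told from an undetected one. Obese against lean listed 5700 genes, obese against WKY 5709 and lean against WKY 233.

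A red cell is filled with haemoglobin, a tetramer of alpha and beta chains that each hold a haem group. Free alpha chains are unstable and are bound by the chaperone AHSP until a beta chain is met. Band 3 exchanges chloride for bicarbonate and ties the membrane, through ankyrin and protein 4.2, to a mesh of spectrin, and protein 4.2 itself belongs to the transglutaminase family but has no enzyme activity. Red cells that circulate in mammals have no nucleus, while reticulocytes, the youngest of them, still carry globin mRNA. A ventricle sample holds blood as well as heart cells, and in bulk tissue a change in the number of cells of a type and a change in RNA per cell cannot be told apart.

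The globin genes come in copies so alike that short reads may fit more than 1 of them, which bears on each globin value below. How alike the transcripts are was not measured here, and the windows compared next lie before the gene start. The 250 bases before the start of RefSeq's Hba-a1 and Hba-a2 (build GRCr8, minus strand, chr10:15842581-15842830 and chr10:15829139-15829388) were 96.4% identical, and those of Hbb-bs and Hbb-b1 (minus strand, chr1:167631631-167631880 and chr1:167643521-167643770) were 93.6% identical in an alignment with gaps. They are shown with Epb42 (chr3:128451684-128451933, minus strand), whose window has no such twin and was 45.8% to 49.6% identical to the windows of the other genes described here. Capitals mark GATAA, the core of the sequence bound by GATA factors, CACCC, a sequence bound by Kruppel-like factors such as KLF1, and TATAAA, the TATA box, on either strand. RefSeq windows were found for 6 of the 8 symbols, without Slc4a1 and Ahsp.
Epb42: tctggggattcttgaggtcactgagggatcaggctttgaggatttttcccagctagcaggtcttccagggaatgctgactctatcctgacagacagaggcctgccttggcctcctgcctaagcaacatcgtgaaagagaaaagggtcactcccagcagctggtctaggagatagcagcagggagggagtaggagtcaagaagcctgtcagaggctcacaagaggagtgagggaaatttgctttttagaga
Hba-a1: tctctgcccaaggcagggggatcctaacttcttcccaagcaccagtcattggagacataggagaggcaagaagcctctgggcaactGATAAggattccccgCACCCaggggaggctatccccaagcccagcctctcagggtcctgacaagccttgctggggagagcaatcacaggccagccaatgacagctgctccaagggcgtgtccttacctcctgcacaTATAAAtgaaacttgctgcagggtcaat
Hba-a2: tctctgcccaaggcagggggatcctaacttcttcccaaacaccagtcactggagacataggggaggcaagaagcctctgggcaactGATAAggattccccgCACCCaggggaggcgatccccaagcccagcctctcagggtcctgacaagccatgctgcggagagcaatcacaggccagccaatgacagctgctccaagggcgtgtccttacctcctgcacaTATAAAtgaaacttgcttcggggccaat
Hbb-bs: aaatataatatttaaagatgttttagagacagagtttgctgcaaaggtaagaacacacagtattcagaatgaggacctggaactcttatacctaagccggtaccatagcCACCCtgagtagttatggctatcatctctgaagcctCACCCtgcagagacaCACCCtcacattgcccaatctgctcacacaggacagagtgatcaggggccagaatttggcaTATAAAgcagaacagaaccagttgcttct
Hbb-b1: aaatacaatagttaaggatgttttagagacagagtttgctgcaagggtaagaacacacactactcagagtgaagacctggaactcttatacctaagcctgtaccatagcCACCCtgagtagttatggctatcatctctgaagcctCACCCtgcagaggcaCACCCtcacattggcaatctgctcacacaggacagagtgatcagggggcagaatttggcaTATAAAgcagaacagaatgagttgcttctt

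Both alpha windows held GATAA 164 bases, CACCC 149 bases and TATAAA 28 bases before the start. The 2 beta windows each held 3 CACCC matches, 141, 105 and 90 bases before the start, and a TATAAA, but no GATAA. The Epb42 window held none of the 3 motifs. Across 33469 RefSeq windows of this length, 23.5% held GATAA, 49.2% CACCC and 12.9% TATAAA. The matches are descriptions of letters and not of bound sites.

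Of the members, Slc4a1 and Epb42 alone stood in all 3 tables. In the authors' deposited table Slc4a1 was 5.50 times as high in lean as in WKY hearts (adjusted p = 5.16e-66). In obese hearts it stood at 0.374 of the lean level in the authors' deposited table (adjusted p = 4.67e-06). Lean hearts thus had the highest Slc4a1 of the 3 groups, and WKY hearts the lowest, since the authors' deposited table put obese hearts at 2.36 times the WKY level (adjusted p = 4.62e-05).

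Epb42 took the opposite course. Its level in lean hearts was 0.43 of that in WKY in the authors' deposited table (adjusted p = 7.79e-07). In obese hearts it was 6.68 times the lean level (adjusted p = 1.05e-11) and 2.07 times the WKY level (adjusted p = 0.00143) in the authors' deposited table. Lean hearts thus had the lowest Epb42 of the 3 groups and obese hearts the highest. The fold against WKY was just past the listing threshold of 2, and its adjusted p was above the largest in the lean table.

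These opposite steps chose the pair and are given as a description. At the step from lean to obese, the band 3 mRNA fell while that of its partner rose, so the pair differed in direction in the same hearts. Both genes stood above WKY in obese hearts.

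**Figure D1:**
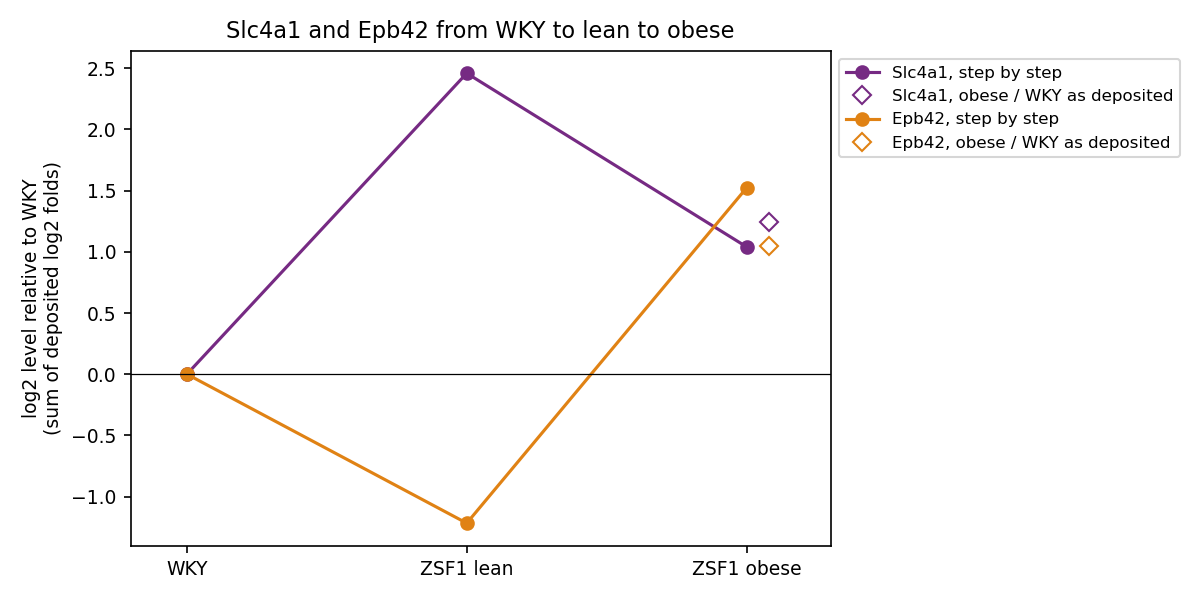
Log2 level of Slc4a1 and Epb42 in ZSF1 lean and ZSF1 obese hearts relative to WKY, with filled points summing the deposited log2 folds step by step and open diamonds giving the deposited obese against WKY value. Slc4a1 is highest in lean hearts and Epb42 lowest, and for Epb42 the diamond (1.05) lies below the summed value by 0.47.

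The steps did not add up exactly. Multiplied, the 2 steps gave an obese against WKY fold of 2.06 for Slc4a1 and 2.87 for Epb42, beside the 2.36 and 2.07 of the authors' deposited table. Over the 79 genes in all 3 tables the summed steps differed from the direct value by a median of -0.22 on the log2 scale, with quartiles of -0.70 and 0.06, so the Slc4a1 difference of -0.20 lay within them and that of Epb42, 0.47, above them. How the authors computed fold changes is not given in the sources used here beyond the use of DESeq2.

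Among the 149 genes that were higher in lean than WKY hearts, Slc4a1 held place 14 by fold in the authors' deposited table, and Epb42 held place 39 among the 84 that were lower. Of the 233 listed genes 63.9% were higher. In obese against lean hearts Epb42 held place 193 among 3045 rises, within the top 6.34%, and Slc4a1 place 1714 among 2655 falls. In obese against WKY hearts they held places 2932 and 2438 among 3084 rises. Epb42 was thus among the larger rises against lean hearts and among the smallest against WKY.

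The listed globin genes, Hba-a2 and Hbb-bs, and the chaperone gene Ahsp were higher in obese hearts than in either other group, while Hba-a1 and Hbb were not listed. Ahsp was 6.54 times the lean level (adjusted p = 1.99e-22) and 7.46 times the WKY level (adjusted p = 4.56e-20) in the authors' deposited table. Hba-a2 had folds of 4.41 against lean (adjusted p = 3.29e-09) and 3.71 against WKY (adjusted p = 3.95e-11) in the authors' deposited table. For Hbb-bs the authors' deposited table gave 3.41 against lean (adjusted p = 7.56e-14) and 5.98 against WKY (adjusted p = 7.88e-16).

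Further globin copies outside the 8 symbols did the same. In the authors' deposited table the fold in obese hearts was 3.95 against lean and 8.94 against WKY for Hbb-b1, 5.90 and 4.56 for Hba-a3, and 6.28 and 4.66 for Hbq1b, a theta chain gene of the alpha cluster. In all, 6 of 13 globin and chaperone genes rose against lean and 6 of 13 against WKY, with medians of 5.15 and 5.32, and 0 fell in either, the other 7 being unlisted. Of protein-coding RefSeq symbols 22.8% and 22.9% were listed. The 6 include the members Hba-a2, Hbb-bs and Ahsp, chosen with these values in view, and globin copies that may share reads. The count and medians are thus a description and not one of 6 separate genes. Over all listed genes the medians were 2.099 and 2.11, over the listed rises alone 3.01 and 3.05, and rises made up 53.4% and 54.0% of the genes. Members of the alpha cluster (Hba-a2, Hba-a3, Hbq1b) had the larger fold against lean hearts, and those of the beta cluster (Hbb-bs, Hbb-b1) had the larger fold against WKY hearts.

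That difference can be read as a value for lean against WKY, a comparison in which no globin was listed. Dividing the deposited obese against WKY fold by the obese against lean fold gave 2.27 for Hbb-b1 and 1.75 for Hbb-bs, but 0.841 for Hba-a2, 0.774 for Hba-a3 and 0.742 for Hbq1b. Ahsp came to 1.14 and Alas2 to 0.727. These quotients have no error of their own and were not tested. They also carry the mismatch between the deposited comparisons, which had log2 quartiles of -0.70 and 0.06 over the 79 genes in all 3. A split between alpha and beta genes in lean against WKY is therefore not established by them. The beta values lie above 1 and the alpha values below, and reads shared between copies cannot be told apart from a change in either.

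Names of the alpha copies are uncertain as well. The tables describe Hba-a2 (ENSRNOG00000029886) as alpha adult chain 1 and Hba-a3 (ENSRNOG00000047321) as alpha adult chain 2. RefSeq lists Hba-a1 as a synonym of its Hba-a2 and of its Hba-a3. The absence of the symbol Hba-a1 from the tables is thus an absence of that name, and which alpha copy each value belongs to was not settled.

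**Figure D2:**
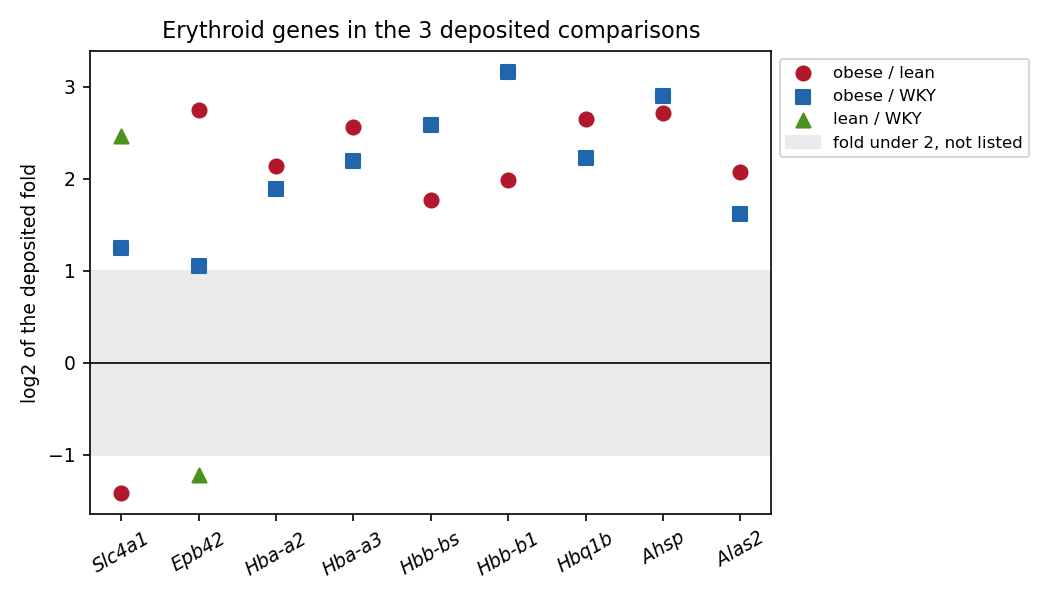
Log2 of the deposited fold for the 6 listed members and 3 further globin genes (horizontal axis) in obese against lean, obese against WKY and lean against WKY hearts, with the unlisted range shaded. The globins shown, Ahsp and Alas2 lie above the shaded range in both obese comparisons, and only Slc4a1 and Epb42 have a lean against WKY point, on opposite sides.

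Alas2, which makes aminolevulinic acid in erythroid cells, rose with the globins. It was 4.20 times the lean level (adjusted p = 4.85e-12) and 3.05 times the WKY level (adjusted p = 2.19e-08) in the authors' deposited table. Alas1, the form used by other tissues, went the other way, at 0.162 of the lean level (adjusted p = 3.7e-40) and 0.147 of the WKY level in the authors' deposited table. The pair of synthases thus differed in direction in both comparisons with obese hearts.

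Most other listed genes of haem synthesis fell with Alas1. Of 23 genes 10 fell and 2 rose against lean, with a median fold of 0.372, and 9 fell and 2 rose against WKY, with a median of 0.344. Listed shares for the list stand beside 22.8% and 22.9% of 23154 protein-coding RefSeq symbols that were listed in these tables. In the authors' deposited table Clpx, a mitochondrial chaperone that acts on ALAS, stood at 0.227 of the lean level and Uros, an enzyme of the middle of the pathway, at 0.189. Fech, the enzyme that puts iron into haem, stood at 0.342 and Abcb10, a mitochondrial transporter, at 0.369 in the authors' deposited table. The only other rise was Pgrmc1, a haem-binding membrane protein gene, at 2.36 times the lean level in the authors' deposited table. In these lists Alas2 was therefore the only enzyme of the pathway that rose.

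**Figure D3:**
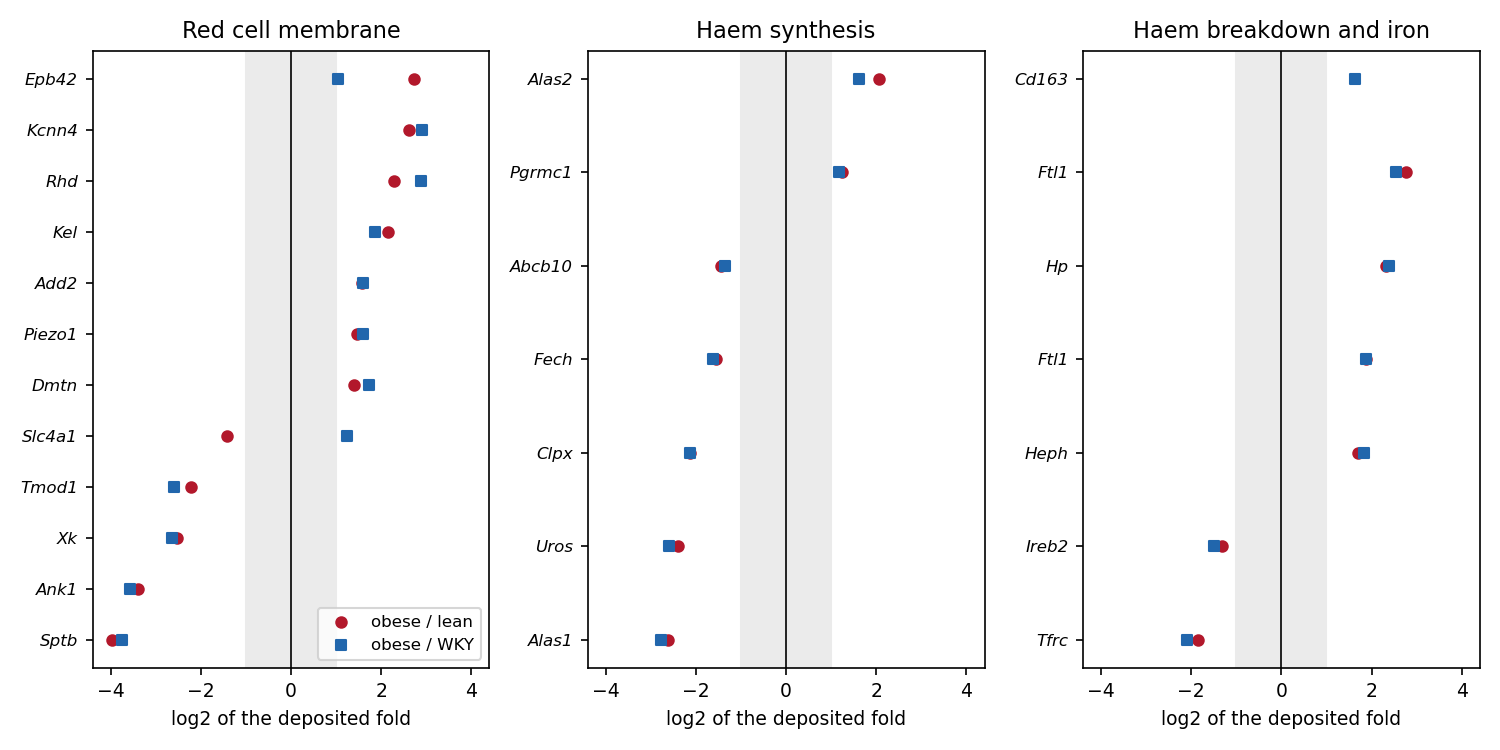
Log2 of the deposited fold for the listed genes reported here from the red cell membrane, haem synthesis and haem breakdown and iron lists, in obese against lean (circles) and obese against WKY (squares) hearts, with the unlisted range shaded. In haem synthesis, Alas2 and Pgrmc1 stand to the right and the other genes shown to the left, and Slc4a1 is on opposite sides in the 2 comparisons.

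The membrane partners of band 3 and protein 4.2 split. Of 29 genes of the red cell membrane and its skeleton 11 rose and 6 fell against lean, and 12 rose and 7 fell against WKY. Beside this, 22.8% and 22.9% of protein-coding RefSeq symbols were listed, and 53.4% and 54.0% of all listed genes rose. The falls of the membrane list included its largest changes. Sptb, the beta spectrin of red cells and muscle, stood at 0.064 of the lean level (adjusted p = 2.86e-140), and Ank1, the ankyrin that holds band 3 and has a short form in muscle, at 0.095 in the authors' deposited table. Xk, which carries a blood group antigen and is also made in muscle, stood at 0.173 and Tmod1, which caps actin in red cells and in sarcomeres, at 0.215 in the authors' deposited table. Against WKY Sptb, Ank1, Xk and Tmod1 stood at 0.075, 0.084, 0.16 and 0.166 in the authors' deposited table.

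Blood group and skeleton genes of the same list rose. Rhd, of the Rhesus protein family, had folds of 4.89 and 7.36 against lean and WKY in the authors' deposited table. The authors' deposited table gave Kel, a blood group protein gene, 4.44 and 3.63, Add2, the beta adducin of red cells and brain, 2.99 and 3.01, and Dmtn, the actin-bundling dematin, 2.66 and 3.34. Kcnn4, the calcium-activated potassium channel of red cells and lymphocytes, had 6.19 and 7.46, and Piezo1, a stretch-gated channel of red cells and endothelium, 2.77 and 3.01 in the authors' deposited table. Epb42 had the largest rise of the list against lean hearts and the smallest against WKY. Slc4a1 was the only gene of the list that fell against lean and rose against WKY.

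Relatives of these proteins from other tissues gave 2 rises and 3 falls among 17 genes against lean, and 2 rises and 4 falls against WKY. The 5 and 6 of 17 listed stand beside 22.8% and 22.9% of all protein-coding symbols listed in these comparisons. Ank2, the ankyrin of heart muscle, stood at 0.076 and 0.067 in the authors' deposited table. In the SLC4 family of bicarbonate transporters, 5 of 11 genes fell against lean and 1 rose. Slc4a3, the anion exchanger of heart muscle, stood at 0.314 of the lean and 0.281 of the WKY level, and Slc4a4, a sodium bicarbonate cotransporter gene, at 0.295 and 0.243 in the authors' deposited table. Slc4a1 was thus 1 of several family members lower in obese than in lean hearts, and with Slc4a11 1 of the 2 that were above WKY. In lean against WKY no other member of the family was listed.

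Among transglutaminase genes, the family of Epb42, F13a1, a clotting factor subunit made by macrophages and platelet precursors, had folds of 5.17 against lean and 4.79 against WKY in the authors' deposited table. The authors' deposited table gave Tgm7, 2 genes from Epb42 in the RefSeq gene order, a fold of 4.72 against lean hearts (adjusted p = 0.00555), and put Ubr1, 3 genes away on the other side, at 0.457. Around Slc4a1 none of the 3 genes on either side was listed in any table, by symbol. Beside Ahsp, the adjacent gene Rusf1 had folds of 2.48 against lean and 2.83 against WKY, and Tgfb1i1, 3 genes away on the same side, 3.25 and 2.71 in the authors' deposited table. Beside Alas2, Pfkfb1 was listed with folds of 2.48 in lean and 3.48 in obese against WKY hearts, and at the Hba cluster Luc7l was listed with folds of 3.05 against lean and 3.27 against WKY in the authors' deposited table.

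Regulators of erythroid genes were listed in part. Of 27 genes 6 rose and 3 fell against lean, with 4 rises and 4 falls against WKY. That is 9 and 8 of 27 listed, a share not far above the 22.8% and 22.9% of all protein-coding symbols, so the counts alone do not set the list apart. Tal1 had folds of 4.06 and 3.41, Lyl1 of 5.86 and 5.17, Lmo2 of 3.66 and 4.50 and Gata2 of 3.23 and 4.03 in the authors' deposited table, and these factors act in endothelial as well as blood precursor cells. Klf1, the Kruppel-like factor of red cell precursors, was listed against lean hearts alone in the authors' deposited tables, with a fold of 2.91 (adjusted p = 0.00109), as was Gfi1b, with 5.10 (adjusted p = 0.016). Gata1 and the receptor gene Epor were in no table. Falls included Bcl11a, a repressor of fetal globin genes, at 0.21 of the lean level, and Egln3, an oxygen-sensing hydroxylase gene, at 0.136 in the authors' deposited table.

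The late erythroid list of 23 genes gave 5 rises and 5 falls against lean, and 6 rises and 5 falls against WKY. Of all protein-coding RefSeq symbols 22.8% and 22.9% were listed, and rises made up 53.4% and 54.0% of all listed genes. Hemgn, a nuclear protein gene of red cell precursors, had folds of 7.46 and 4.53 in the authors' deposited table. Bnip3l, which removes mitochondria from maturing red cells, had 2.14 and 2.25 in the authors' deposited table. Tfrc, the transferrin receptor through which precursors and other cells take up iron, stood at 0.279 of the lean and 0.235 of the WKY level in the authors' deposited table.

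Genes of haem breakdown and iron, 32 symbols, gave 13 rises and 4 falls against WKY, and 7 rises and 5 falls against lean. Over all listed genes 54.0% rose against WKY and 53.4% against lean, and 22.9% and 22.8% of protein-coding RefSeq symbols were listed. The counts for this list include 2 identifiers named Ftl1, the ferritin light chain, with folds of 3.66 and 6.77 against lean in the authors' deposited table. Heph, an iron oxidase gene, had folds of 3.25 and 3.58, and Hp, which binds free haemoglobin, had 4.99 and 5.21 in the authors' deposited table. Cd163, the macrophage receptor for haptoglobin with haemoglobin, was listed against WKY alone, with the authors' deposited table giving 3.095. Ireb2, a sensor that governs ferritin and transferrin receptor, stood at 0.403 and 0.354 in the authors' deposited table. Hmox1, which opens the haem ring, was in no table.

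**Figure D4:**
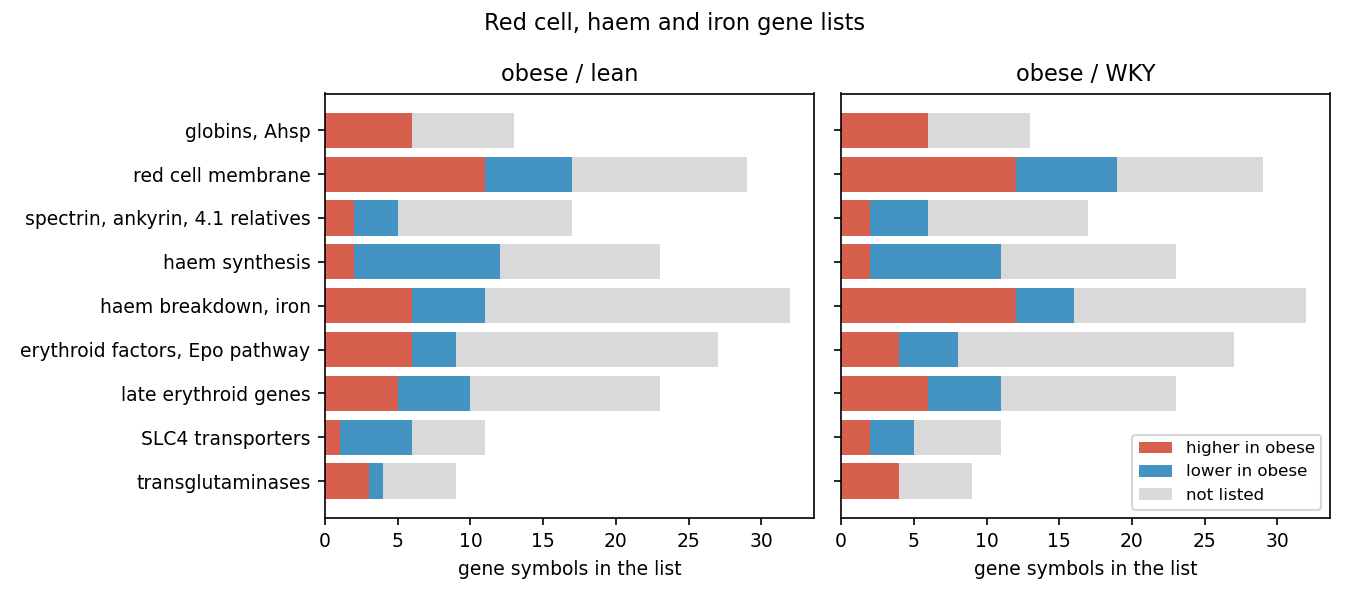
Number of gene symbols in each list that were higher in obese hearts, lower in obese hearts or not listed (horizontal axis), for obese against lean (left) and obese against WKY (right). The globin list has rises and unlisted genes but no falls, haem synthesis mostly falls, and the membrane list both.

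Markers of erythroid cells as a set gave 9 rises and 4 falls among 19 against lean, and 9 rises and 3 falls against WKY. Beside this, 22.8% and 22.9% of protein-coding RefSeq symbols were listed, and 53.4% and 54.0% of all listed genes rose. The set holds the listed members Slc4a1, Epb42, Alas2, Hba-a2, Hbb-bs and Ahsp, chosen with these values in view, and Hbb-b1, which may share reads with Hbb-bs. Its counts are thus a description and not separate support. The falls against lean included Slc4a1, Ank1 and Tfrc. Rhag, Gata1 and Epor, which also mark these cells, were in no table. The markers of this set that rose against lean were Hba-a2, Hbb-bs, Hbb-b1, Ahsp, Alas2, Epb42, Rhd, Hemgn and Klf1. A rise was therefore not shared by every erythroid marker.

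Markers of other cells were listed to different extents, beside 22.8% of all protein-coding symbols listed against lean, 22.9% listed in obese against WKY and 0.881% in lean against WKY. Neutrophil markers rose in 7 of 12 cases against lean, with a median fold of 10.3 and 0 falls. In lean against WKY 4 of the 12 fell, with a median of 0.34, and 0 rose. Against WKY 2 of 12 rose in obese hearts. Epb42 was thus, like 4 of the 12 neutrophil markers, listed as lower in lean than in WKY hearts. No globin was listed in that comparison, where the adjusted p of listed genes reached no further than 0.000347. Among megakaryocyte and platelet markers 2 of 15 rose in each obese comparison, including Vwf, which is also a gene of endothelium, and 13 were unlisted, a smaller share listed than among all protein-coding symbols. Cardiomyocyte markers fell in 6 of 12 cases in both obese comparisons, endothelial markers rose in 10 of 12, and markers of macrophages that clear red cells rose in 5 of 13 against lean and 7 of 13 against WKY. The part of blood content or of cell composition in the erythroid values was not tested.

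Genes with the same kind of course were ranked by the smaller of their 2 absolute log2 folds, over the 2 deposited steps. Both steps share the lean rats, so nothing is read from how many genes qualified, which was 40 for the course of Epb42 and 48 for that of Slc4a1. For a fall in lean and a rise in obese hearts, the list was led by the clone-named gene AABR07060872.1, Fcgr3a, Csf3r, Oscar and S100a9. In the authors' deposited table Fcgr3a, an Fc receptor of myeloid and natural killer cells, stood at 0.3 in lean against WKY and at 7.36 in obese against lean, and S100a9, a calcium-binding protein of neutrophils, at 0.33 and 22.8. Epb42 held place 16, its step from WKY to lean being the smaller. For a rise in lean and a fall in obese hearts, Dner, Vwa2, Ddo, Pak5 and Dnah5 led, with Dner at 5.90 and 0.08 in the authors' deposited table, and Slc4a1 held place 18, its fall being the smaller step. Vwa2 was, like Slc4a1, still above WKY in obese hearts, at 2.69 in the authors' deposited table, while Dner, Ddo, Pak5 and Dnah5 were not listed there.

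**Figure D5:**
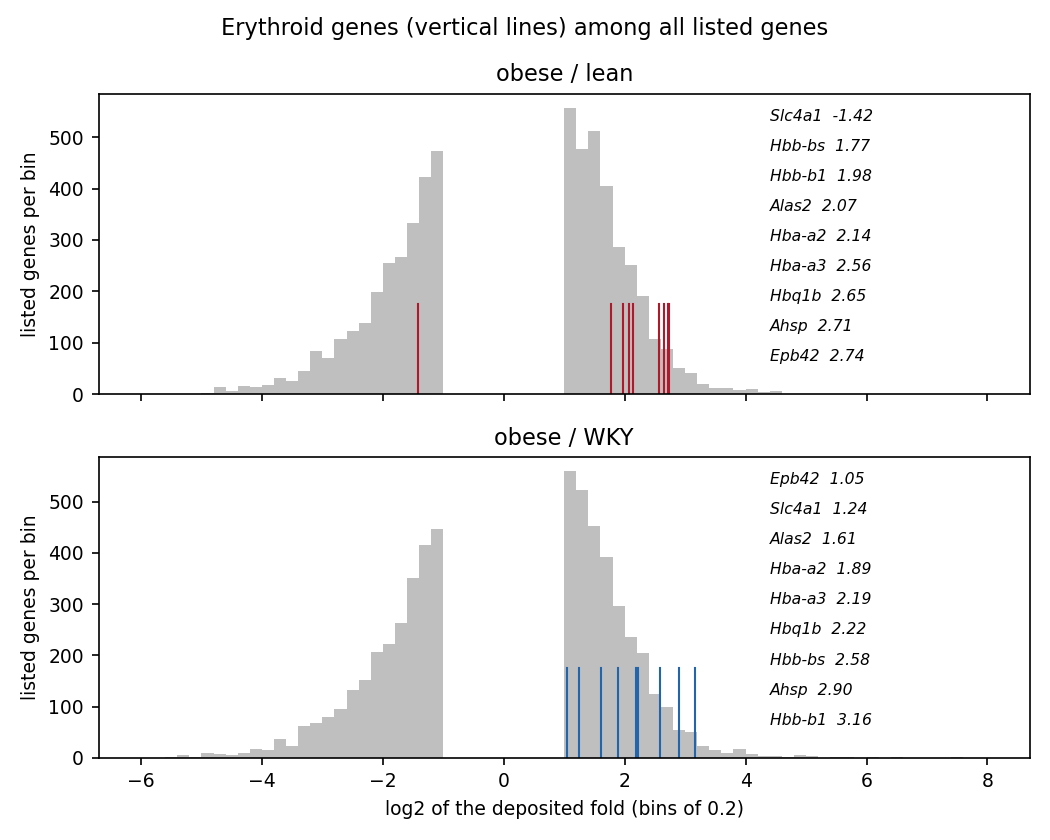
Histograms of the log2 of the deposited fold of all listed genes in obese against lean (top) and obese against WKY (bottom) hearts, with vertical lines at the 6 listed members and the 3 further globin genes and their values printed at the right. Against lean hearts the rises run from 1.77 for Hbb-bs to 2.74 for Epb42 with Slc4a1 at -1.42, and against WKY all 9 genes are on the right, from 1.05 for Epb42 to 3.16 for Hbb-b1.

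Read by comparison, 6 of the 8 symbols were listed against lean, 5 of them higher in obese hearts, and 6 were listed against WKY, all higher. These counts stand beside 22.8% and 22.9% of protein-coding RefSeq symbols listed in the same tables. In lean against WKY 2 were listed, beside 0.881% of protein-coding RefSeq symbols. The members were chosen with these values in view, so the counts are a description. The mRNA of Hba-a2, Hbb-bs, Ahsp and Alas2 was listed as higher in obese hearts than in both other groups, as was that of Epb42, while Slc4a1 was highest in lean hearts.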

How the data were processed

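Only the authors' 3 tables were used. The submitters' processing notes name the aligner HISAT2 (2.1.0), the counter HTSeq (0.11.2), the test DESeq2 (1.22.2) and the genome Rnor_6.0, without saying in the sources used here how each was set, or whether counting used strand. Per the labels' protocols, the libraries were stranded and selected for polyadenylated RNA. The fold, a linear ratio, and the FDR, an adjusted p-value from DESeq2, are the authors' deposited values and were used as they stand. No test was added. Depth and values per rat were not analysed here.

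From the files, log2 folds, ranks, quotients between comparisons and counts over 10 gene lists and 6 marker lists were computed (Python 3.11.15, pandas 2.3.3), and counting was tested on simulated data. Members and lists were chosen with earlier results of these data known, and the motifs after the sequences had been seen. Genes were counted once per identifier, and list sizes are symbols found in RefSeq (GRCr8) or the tables. All 8 symbols matched RefSeq. Windows are the 250 bases before RefSeq's start; that of Hbb-b1 lies 57 bases inside the outermost start. Identity is from Biopython's global alignment (version 1.88).

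Named genes are the 8 symbols, up to 6 genes per list and comparison by adjusted p, 3 neighbours on each side, and the 5 leading genes of each opposite course. Named outside this rule, after their values were seen, are Rhd, Kel, Add2, Dmtn, Tmod1, Klf1, Gfi1b, Hemgn, Hp, Cd163, Hmox1, Gata1, Epor, Rhag and Vwf. A few list members enter the counts but are not reported here by name. Alternatives were a stricter adjusted p or fold, counting by symbol, folds computed from the other 2 comparisons and, chosen after seeing the data, the lean table's largest adjusted p in all tables.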

Additional observations from a re-analysis of the deposited data

How the results depend on the processing

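With an adjusted p under 0.01, or counted once per symbol, no count of listed genes moved by over 1.5 times. The lean table's largest adjusted p applied to both obese tables, chosen after seeing the data, left 6 members against lean and 5 against WKY, where Epb42 dropped out. Folds of Slc4a1 and Epb42 computed from the other 2 comparisons kept their direction and stayed past 2-fold in all 3 comparisons, at 0.429 and 4.82 against lean hearts. The 3 comparisons share the same rats, and their values chose the pair. This agreement was therefore largely fixed in advance and is only a check of arithmetic between the deposited folds.

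A fold of 4 or more left fewer genes. Of the 42 rises and 36 falls over the fixed lists against lean, 20 and 13 remained in number, and of 50 and 35 against WKY, 21 and 15; in lean against WKY the 2 rises and 1 fall became 1 and 0. Members past 4-fold were 4 against lean, 2 against WKY (Ahsp and Hbb-bs) and 1 in lean against WKY (Slc4a1). Of the 88 genes with opposite steps 2 passed, without Slc4a1 and Epb42. The share of rises among all listed genes became 47.2% against lean, 48.2% against WKY and 79.2% in lean against WKY, so at that fold rises no longer outnumbered falls in the obese tables.

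Leaving out single rats, changing the normalization or filtering low counts needs values per rat and was not run. The groups are separate rats and the labels name no pairing between them, so no paired analysis was run. Depth is unknown, so a low count behind a fold cannot be seen.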
